A study of Mus musculus with 2 samples.

Results

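Adipoq and Alpl double-positive CAR cells are Cxcl12-abundant reticular (CAR) cells of mouse bone marrow in which transcripts of adiponectin and of tissue-nonspecific alkaline phosphatase were both counted. They numbered 1233 of 7849 gated CAR cells and of 20654 deposited barcodes, 580 of them in the chase and 653 in the pulse library. Members had at least 500 genes, at least 1000 transcripts counted by unique molecular identifier (UMIs) and under 10% mitochondrial UMIs. They also had at least 30 Cxcl12 UMIs per 10000, no Ptprc UMI, no Cdh5 UMI, at most 3 UMIs of C1qa, C1qb and C1qc together and under 3 UMIs of Mki67 and Top2a together. Within that gate, at least 2 Adipoq UMIs and at least 2 Alpl UMIs made a cell double-positive. Cells with at least 2 Adipoq UMIs and no Alpl UMI are called Adipoq-only (2331 chase and 2389 pulse cells). Cells with at least 2 Alpl UMIs and at most 1 Adipoq UMI are called Alpl-only (163 chase and 144 pulse cells). The remaining 828 chase and 761 pulse cells fell in none of the 3 sets, and 599 chase and 538 pulse cells of these held at least 2 Adipoq UMIs with exactly 1 Alpl UMI.

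CAR cells are perivascular stromal cells that feed blood stem cells and lymphoid progenitors with Cxcl12 and stem cell factor, and most of them carry the leptin receptor. Single-cell studies of mouse marrow divide them into a larger adipogenic fraction, in which lipid-handling genes and Adipoq are expressed, and a smaller osteogenic fraction near bone surfaces, with Alpl, Wif1 and Spp1. Adiponectin is a hormone secreted by fat cells, whereas alkaline phosphatase is an ectoenzyme that splits pyrophosphate and so permits mineral to form.

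The mice were males with Adipoq-CreERT2, a Cre recombinase that works only in the presence of tamoxifen and is expressed where Adipoq is, and with Ai9, a tdTomato reporter that recombination turns on for good. All of them received tamoxifen on 3 days at 8 weeks of age. The chase library was made from mice harvested 4 weeks later and the pulse library from mice harvested 24 hours later, so chase mice were also older. The sources used here give neither the strain nor how many of the 4 mice of the series stand behind each library. Stromal cells were digested from endosteal bone of femur and tibia and sorted for bright tdTomato, which took 0.29% of cells in the chase and 0.01% in the pulse sample. The sort was thus for a reporter whose Cre is expressed where Adipoq is, and Adipoq is one of the 2 genes that define the members. Cells with Ptprc UMIs were in the libraries as well. Those within the same quality limits, with at least 2 Ptprc UMIs and under 30 Cxcl12 UMIs per 10000, are called Ptprc-positive below. They numbered 2246 in chase and 2405 in pulse. With 1 library per harvest time there is no replicate. No value below has a test, and each interval is an exact 95% interval for counting error alone.

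The chase library held 82939659 UMIs and the pulse library 89009901, with median depths of 6592 UMIs per barcode in chase and 7067.5 in pulse. Double-positive cells were deeper than the cells they are compared with. Their median was 8292.5 UMIs in chase and 9879 in pulse, against 6359 (chase) and 7865 (pulse) in Adipoq-only cells and 6747 (chase) and 8107 (pulse) in Alpl-only cells. Mitochondrial genes took a median of 3.69% (chase) and 3.64% (pulse) of the UMIs of a double-positive cell, against 3.12% (chase) and 3.04% (pulse) in Adipoq-only cells and 5.14% (chase) and 4.96% (pulse) in Alpl-only cells. The part of depth and of mitochondrial share in the differences below was not tested, beyond the values given at fixed depth. The libraries had 52 barcodes in common, of which none was double-positive in both and 4 were double-positive in either.

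The starts of the genes that define the members are shown because the counts of both set the members apart. The windows run from 250 bases before to 50 bases after the start that RefSeq gives (GRCm38.p6), in the direction of transcription. Adipoq starts on chr16:23146286-23146585 (plus strand), and Alpl has a pair of starts on the minus strand of chromosome 4, at chr4:137796335-137796634 and at chr4:137766426-137766725. Counts from the 3 prime end do not tell which Alpl start was used. Capitals mark matches on either strand to 6 motifs, namely the CCAAT box (CCAAT), the GC box (GGGCGG), the TATA box (TATAAA), and the RUNX (TGTGGT), C/EBP (TTGCNNAA) and EBF (CCCNNGGG) motifs.
Adipoq: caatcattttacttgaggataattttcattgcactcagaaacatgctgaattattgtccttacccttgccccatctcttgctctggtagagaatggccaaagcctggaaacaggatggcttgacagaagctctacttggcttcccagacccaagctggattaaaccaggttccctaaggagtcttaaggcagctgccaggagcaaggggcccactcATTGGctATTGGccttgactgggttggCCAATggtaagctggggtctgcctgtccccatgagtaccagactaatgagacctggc
Alpl, upstream start: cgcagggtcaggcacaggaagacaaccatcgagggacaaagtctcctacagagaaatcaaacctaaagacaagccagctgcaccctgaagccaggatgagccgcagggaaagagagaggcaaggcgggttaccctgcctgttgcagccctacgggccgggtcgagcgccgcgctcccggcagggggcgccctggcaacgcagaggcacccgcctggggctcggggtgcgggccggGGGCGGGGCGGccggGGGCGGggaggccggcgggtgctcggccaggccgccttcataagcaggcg
Alpl, downstream start: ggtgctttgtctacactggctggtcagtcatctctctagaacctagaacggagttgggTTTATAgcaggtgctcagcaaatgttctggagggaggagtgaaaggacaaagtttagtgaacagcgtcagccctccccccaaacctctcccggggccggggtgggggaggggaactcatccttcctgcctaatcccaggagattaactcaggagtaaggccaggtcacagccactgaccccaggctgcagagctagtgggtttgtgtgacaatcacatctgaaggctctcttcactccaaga
The Adipoq window held 3 CCAAT boxes, the upstream Alpl window 3 GC boxes, 2 of which overlap, and the downstream Alpl window 1 TATA box. Of 32851 promoters of the same length, 37.4% held a CCAAT box, 35.7% a GC box and 13.6% a TATA box. The RUNX, C/EBP and EBF motifs, found in 16.8%, 10.8% and 13.7% of promoters, were not in these 3 windows.

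Double-positive cells made up 14.9% of gated CAR cells in the chase library (13.8 to 16.02) and 16.5% in the pulse library (15.4 to 17.7). The gated cells had median depths of 6524 UMIs in chase and 8046 in pulse. Among cells of 5000 to 15000 UMIs the shares were 17.3% (chase) and 17.4% (pulse). With each cell reduced at random to 4000 UMIs, and 768 chase and 567 pulse cells dropped for want of depth, 8.49% of chase cells (7.53 to 9.52) and 7.75% of pulse cells (6.87 to 8.70) still passed. The order of the libraries thus turned over with depth, and no difference in share between the harvest times is read from them. The same pair of transcripts was far rarer in Ptprc-positive cells (Ptprc is the pan-leukocyte gene). Their limit of under 30 Cxcl12 UMIs per 10000 leaves out blood cells with much CAR cell RNA. Their share thus does not measure how often free RNA gives the pair. Of the Ptprc-positive cells, 6 of 2246 in chase (0.267%) and 9 of 2405 in pulse (0.374%) had at least 2 UMIs of each, at median depths of 9941.5 (chase) and 6576 (pulse) UMIs. After thinning the counts were 1 of 1903 (chase) and 0 of 1659 (pulse), and 0 allows a share of up to 0.181% by the limit of 3 counts, or 0.222% by the exact interval.

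A double-positive cell held a median of 13 Adipoq UMIs in each library, with quartiles of 7 and 22 in chase and 6 and 22 in pulse. Its Alpl count was lower, with a median of 3 (quartiles 2 and 6) in chase and 4 (quartiles 2 and 6) in pulse. Adipoq-only cells had medians of 12 (chase) and 14 (pulse) Adipoq UMIs, and Alpl-only cells a median of 6 Alpl UMIs in each library. Most members thus carried Adipoq at the count seen in Adipoq-only cells, but at greater depth, with Alpl close to the threshold. Equal counts are therefore not equal shares of a cell's UMIs. The gate fixed these counts, so they describe it.

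**Figure D1:**
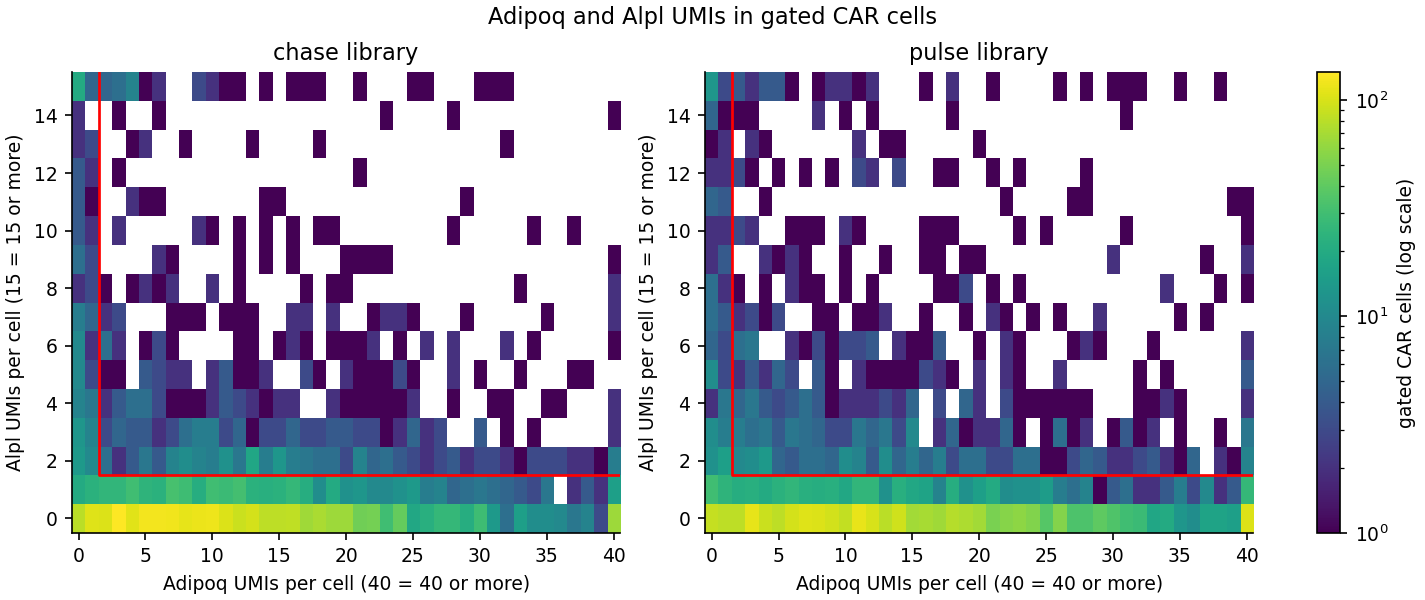
Gated CAR cells by their Adipoq UMIs (horizontal axis) and Alpl UMIs (vertical axis), chase library left and pulse library right. Colour gives the number of cells on a log scale, the last row and column pool higher counts, and the red line bounds the double-positive region, which holds 580 chase and 653 pulse cells and has no gap along its edges.

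A measure that the gate did not use was had by dividing each cell's UMIs at random into a pair of portions of equal size, choosing cells on the first and counting the second. Cells with at least 1 UMI of both genes in the first portion carried 422 CPM (UMIs per 1000000 of the summed cells) of Alpl in the second portion in chase (401 to 445) and 366 CPM in pulse (349 to 385). Cells with Adipoq but no Alpl in the first portion carried 56.2 CPM in chase (51.4 to 61.3) and 41.3 CPM in pulse (37.6 to 45.3). Cells with Alpl but no Adipoq in the first portion carried 1033 (chase) and 876 (pulse) CPM. For Adipoq the same cells with both genes held 1711 (chase) and 1495 (pulse) CPM in the second portion, against 2132 (chase) and 2056 (pulse) CPM in cells with Adipoq alone and 172 (chase) and 193 (pulse) CPM in cells with Alpl alone. Cells with both genes in the first portion numbered 803 in chase and 876 in pulse, so they are not the same cells as the members. Of them, 53.7% (chase) and 58.3% (pulse) had an Alpl UMI in the second portion, and the rest had none. That share was lower in cells with Adipoq but no Alpl in the first portion. In UMIs left aside, cells with both genes thus lay, for each gene, well above the cells chosen for lacking it. For Alpl they lay below the cells chosen on Alpl alone, and for Adipoq below those chosen on Adipoq alone. Both portions come from the same barcode. A barcode with RNA of more than 1 cell would give such values too, so the split does not show that members are single cells.

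The label was checked on Lepr and Kitl, CAR markers outside the gate. Lepr, the leptin receptor, had a median of 6.84 (chase) and 4.58 (pulse) UMIs per 10000 in double-positive cells, and 0 (chase) and 0 (pulse) in Ptprc-positive cells. For Kitl, stem cell factor, the medians were 15.3 (chase) and 8.09 (pulse) in double-positive cells and again 0 in Ptprc-positive cells of both libraries. Cxcl12, on which they were gated, took 21133 (chase) and 15828 (pulse) CPM. The reporter was at 1935 (chase) and 2298 (pulse) CPM in double-positive cells, against 2130.0 (chase) and 2153 (pulse) in Adipoq-only cells and 1548 (chase) and 1710.1 (pulse) in Alpl-only cells. Lepr and Kitl were thus present in the median member. The 11 adipogenic CAR markers outside the gate summed to a median of 13324 (chase) and 9226 (pulse) CPM per double-positive cell. Not each of them was that high, and Pparg, given further on, was far lower. Ptprc-positive cells were chosen for low Cxcl12, so they are not CAR cells by rule. Cells with osteoblast transcripts are described further on.

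Each member was then placed by its marker UMIs, leaving the gate genes out. The measure is the share of 9 osteogenic CAR markers (the list without Alpl) in the UMIs of these and of 11 adipogenic CAR markers (the list without Adipoq and Cxcl12). Cxcl14, on the osteogenic list, was highest in Adipoq-only cells (values further on), and its UMIs count toward their osteogenic share. Double-positive cells had medians of 42.5% in chase and 56.0% in pulse, Adipoq-only cells 27.9% (chase) and 32.2% (pulse), and Alpl-only cells 79.6% (chase) and 79.1% (pulse). The spread among double-positive cells was wide, with quartiles of 32.7% and 60.2% in chase and 44.0% and 69.0% in pulse. A 10th of them lay below 25.4% in chase and 34.4% in pulse, within the Adipoq-only range, and another 10th above 75.8% (chase) and 79.3% (pulse), within the Alpl-only range.

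**Figure D2:**
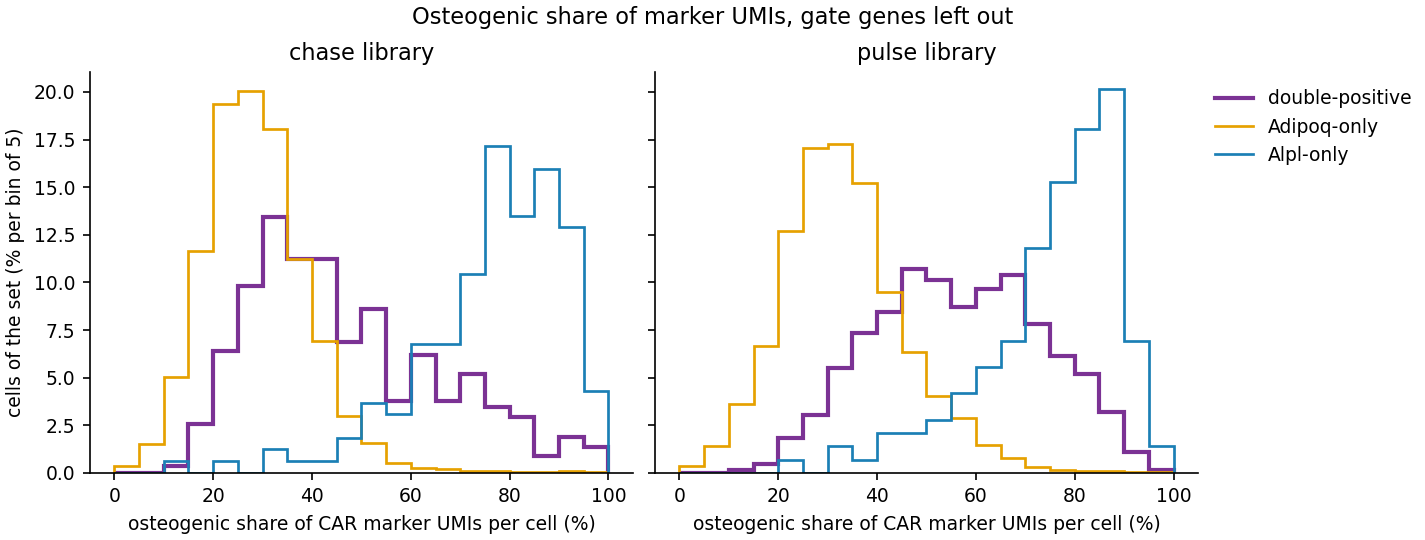
Share of cells (vertical axis, percent per bin of 5) by the osteogenic share of their CAR marker UMIs (horizontal axis, percent), for double-positive, Adipoq-only and Alpl-only cells, chase library left. Double-positive cells (medians 42.5% in chase and 56.0% in pulse) spread between the other sets and overlap both.

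Clustering the gated cells of each library apart, without the gate genes, divided the members rather than gathering them. In the chase library 1 cluster of 334 cells, led by Postn, Col6a3, Fn1, Lum and Spp1, held 26.4% of double-positive cells, 84.7% of Alpl-only cells and 0.300% of Adipoq-only cells. The pulse library had 1 such cluster of 401 cells, led by Postn, Omd, Col6a3, Slc20a2 and Wif1, which held 36.3% of double-positive, 74.3% of Alpl-only and 0.419% of Adipoq-only cells. Double-positive cells were 45.8% of that cluster in chase and 59.1% in pulse. Most other members sat among the Adipoq-only cells, since the 2 largest chase clusters held 46.9% and 15.7% of double-positive cells (56.8% and 18.7% of Adipoq-only cells) and the 2 largest pulse clusters 23.7% and 30.9% (53.4% and 28.2% of Adipoq-only cells). Among these, the largest cluster of each library was led by stress and immediate early genes, such as Socs3 and Rrad. A small cluster led by Bglap, Bglap2 and Col1a1 held 11 double-positive cells of 21 in chase, at a median of 19728 UMIs, and 18 of 24 in pulse, at 29334.5 UMIs.

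Levels summed over cells changed on both sides of the threshold of 2 Alpl UMIs. A changing mixture of cells like either comparison set would give such steps as well, so these sums do not place single cells. In cells with at least 2 Adipoq UMIs, Wif1, a secreted Wnt inhibitor, was higher at each step of the Alpl count. At 0, 1, 2, 3 to 4 and 5 or more Alpl UMIs it took 192, 265, 371, 568 and 1369 CPM in the chase library and 83.5, 160.3, 290.3, 428 and 750.2 CPM in the pulse library. Kcnk2, a potassium channel, took 63.4, 88.5, 125, 186 and 484 CPM in chase and 103, 187, 288, 394 and 619 CPM in pulse, and Sp7 (osterix, the transcription factor of bone formation) 17.9, 30.3, 37.2, 52.3 and 93.7 CPM in chase and 21.5, 36.9, 40.1, 72.8 and 87.9 CPM in pulse. Lpl, lipoprotein lipase, ran the other way, at 1637, 1419.9, 1412, 1153 and 709.5 CPM in chase and 3074, 2442, 2021, 1490.3 and 1000.01 CPM in pulse. For these 4 genes the step, as a ratio, from just outside the threshold (1 Alpl UMI) to just inside it (2 Alpl UMIs) was no larger than at least 1 of its neighbouring steps. Fabp4, a fatty acid carrier of fat cells, took 185, 68.4, 33.8, 53.8 and 9.73 CPM in chase and 193, 91.5, 26.2, 43.3 and 17.7 CPM in pulse, so it was uneven among the members. Depth moved with these strata, with median UMIs of 6359, 6789, 7444, 7620.5 and 9585 in chase and 7865, 8370.5, 9060.5, 9276.5 and 10926 in pulse. Within 5000 to 15000 UMIs, Wif1 still took 188, 271, 354, 572 and 1519 CPM in chase and 83.1, 157, 299.7, 453 and 911 CPM in pulse.

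**Figure D3:**
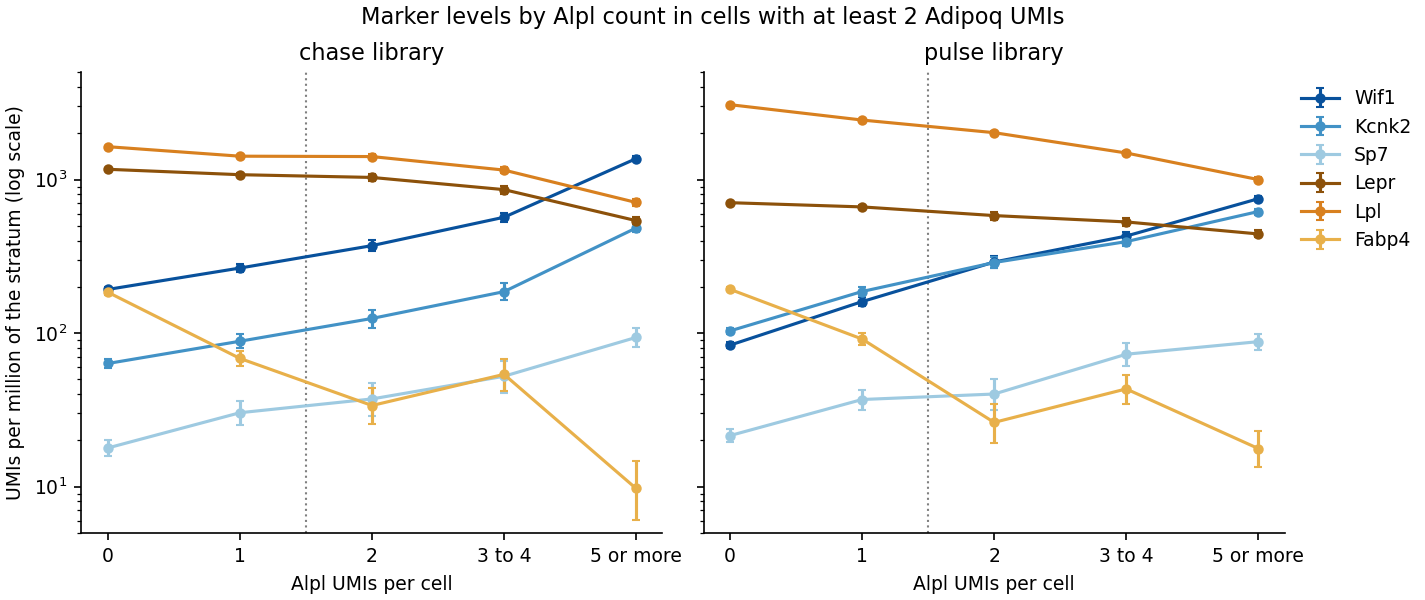
Levels of 6 genes (vertical axis, CPM, log scale) by Alpl UMIs per cell (horizontal axis) among gated cells with at least 2 Adipoq UMIs, chase library left. Bars are 95% counting intervals and the dotted line is the double-positive threshold, across which Wif1, Kcnk2 and Sp7 keep climbing and Lpl and Lepr keep declining, while Fabp4 declines unevenly.

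Against Adipoq-only cells, double-positive cells held more transcript of bone matrix, mineralization and osteogenic CAR genes and less of lipid, complement and inflammatory genes. Of 11127 genes with at least 50 UMIs over both sides in each library, 302 (2.71%) were at least 1.5-fold higher in both libraries and 207 (1.86%) at least 1.5-fold lower, and over all these genes the median log2 ratio was 0.02 in chase and 0.01 in pulse. These shares are the background for the counts that follow. The gate read the same cells, so the ratios describe the sets and support nothing beyond that.

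Osteogenic CAR markers were higher in 6 of 9 tested members (median log2 ratio 1.85 in chase and 1.45 in pulse). Wif1 (chr10:121033960-121100650 in mm10) stood at 845 (chase) and 537 (pulse) CPM in double-positive cells, against 192 (chase) and 83.5 (pulse) in Adipoq-only cells and 2181 (chase) and 1004 (pulse) in Alpl-only cells, a ratio to Adipoq-only cells of 4.39 in the chase library (95% counting interval 4.19 to 4.6) and 6.43 in the pulse library (6.06 to 6.82). Kcnk2 reached 293 (chase) and 467 (pulse) CPM in double-positive cells, against 63.4 (chase) and 103 (pulse) in Adipoq-only cells and 748 (chase) and 970.1 (pulse) in Alpl-only cells. Limch1, an actin-associated protein, took 1059 (chase) and 641 (pulse) CPM in double-positive cells, against 355 (chase) and 226 (pulse) in Adipoq-only cells and 1995 (chase) and 1073 (pulse) in Alpl-only cells. In each library these 3 genes were lowest in Adipoq-only and highest in Alpl-only cells. Spp1, the mineral-binding protein osteopontin, was at 5287 (chase) and 4402 (pulse) CPM in double-positive cells, against 1463 (chase) and 2061 (pulse) in Adipoq-only cells and 10099.8 (chase) and 10202 (pulse) in Alpl-only cells. Mmp13, a collagenase, was at 2107 (chase) and 2761 (pulse) CPM in double-positive cells, against 501 (chase) and 1013 (pulse) in Adipoq-only cells and 4931 (chase) and 4273 (pulse) in Alpl-only cells. All of these lay between the other sets, below Alpl-only cells. Wif1 and Kcnk2 were spread over many members, since the 10 highest cells held 12.8% (chase) and 9.88% (pulse) of Wif1 UMIs and 15.5% (chase) and 7.86% (pulse) of Kcnk2 UMIs. For Spp1 the 10 highest cells held 50.5% (chase) and 18.8% (pulse). Cxcl14, Tnc and Runx2, on the same list, did not pass in both libraries. Runx2, the transcription factor at the head of the osteoblast line, was at 299 (chase) and 282 (pulse) CPM in double-positive cells, against 232 (chase) and 243 (pulse) in Adipoq-only cells and 405 (chase) and 379 (pulse) in Alpl-only cells.

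**Figure D4:**
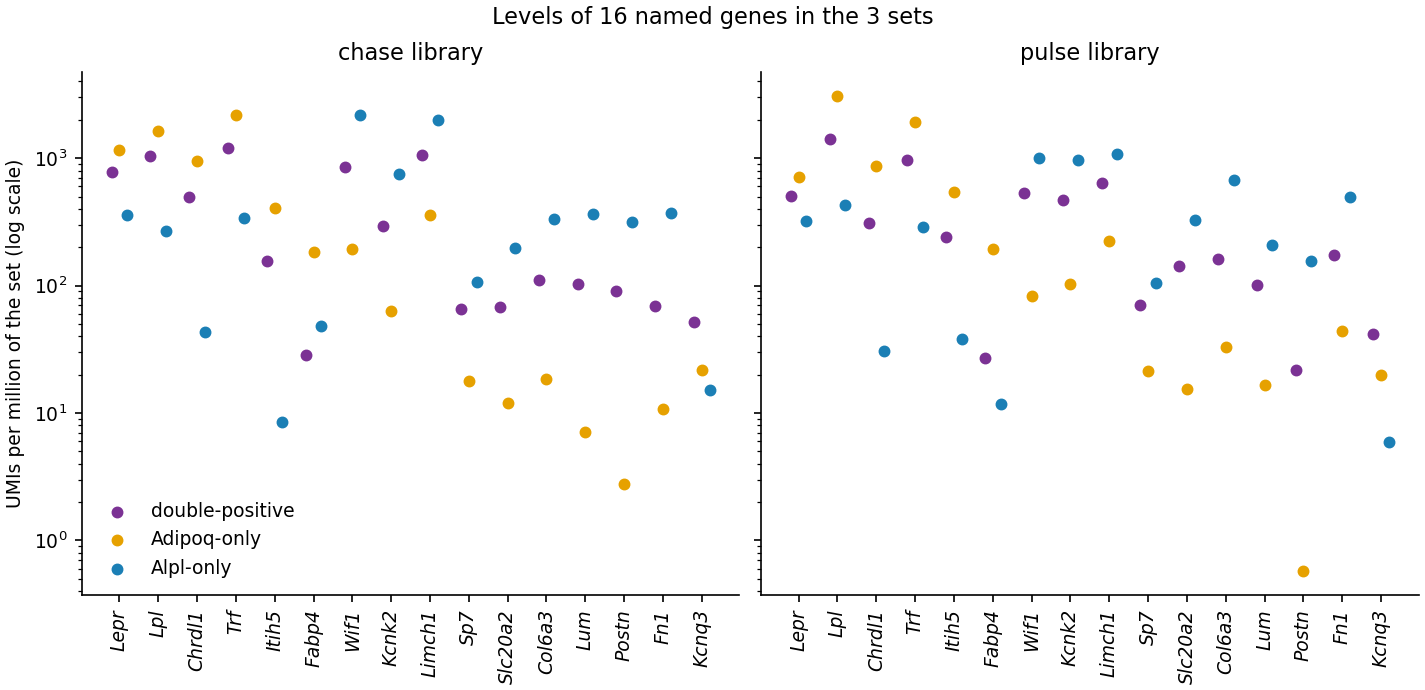
CPM (vertical axis, log scale) of 16 named genes in double-positive, Adipoq-only and Alpl-only cells, chase library left and pulse library right. Double-positive points sit between the other sets for most genes, while Kcnq3 is above both in each library and Fabp4 is below both in the chase library.

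Of 14 osteogenic transcription factors tested of 16 listed, 5 were higher and none lower, among them Sp7, Dlx5, Mef2c and Twist1 (median log2 ratio 0.32 in chase and 0.28 in pulse). Sp7 took 65.1 (chase) and 70.9 (pulse) CPM in double-positive cells, against 17.9 (chase) and 21.5 (pulse) in Adipoq-only cells and 106 (chase) and 104 (pulse) in Alpl-only cells. Mef2c, a muscle and bone regulator, was at 103 (chase) and 94.3 (pulse) CPM in double-positive cells, against 28.5 (chase) and 31.1 (pulse) in Adipoq-only cells and 272 (chase) and 217 (pulse) in Alpl-only cells. Pth1r, the receptor through which parathyroid hormone acts on bone cells, was at 226 (chase) and 221 (pulse) CPM in double-positive cells, against 102 (chase) and 123 (pulse) in Adipoq-only cells and 479 (chase) and 406 (pulse) in Alpl-only cells. It was 1 of 3 receptors of 16 tested that were higher, beside Vdr (vitamin D) and Fgfr3, while Ghr, the growth hormone receptor, was lower. In the Wnt pathway 6 of 23 tested genes of 30 were higher (Wif1, Lrp4, Ror2, Axin2, Lef1 and Tcf7) and 2 lower (Sfrp4 and Fzd4). Lrp4, a co-receptor that anchors sclerostin, stood at 38 (chase) and 62.6 (pulse) CPM in double-positive cells, against 10.3 (chase) and 17.6 (pulse) in Adipoq-only cells and 94.8 (chase) and 133 (pulse) in Alpl-only cells. Axin2, a target gene of Wnt signalling, had low levels of 10.3 (chase) and 12 (pulse) CPM in double-positive cells, against 5.47 (chase) and 3.3 (pulse) in Adipoq-only cells and 19.5 (chase) and 12.7 (pulse) in Alpl-only cells. Sfrp4, another secreted Wnt inhibitor, was at 342 (chase) and 242 (pulse) CPM in double-positive cells, against 712 (chase) and 484 (pulse) in Adipoq-only cells and 109 (chase) and 114 (pulse) in Alpl-only cells, so the 2 inhibitors Wif1 and Sfrp4 ran opposite ways. Among 28 BMP and TGF-beta genes 3 were higher (Bmp3, Gdf10 and Smad6) and 1 was lower (Chrdl1, which binds BMPs and was at 497 (chase) and 309 (pulse) CPM in double-positive cells, against 947 (chase) and 861 (pulse) in Adipoq-only cells and 43.2 (chase) and 30.4 (pulse) in Alpl-only cells).

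Several lists of matrix genes had members past 1.5-fold. Higher were 10 of 17 collagens tested, 9 of 10 osteoblast markers, 8 of 14 mineralization genes, 8 of 17 matrix proteases and inhibitors (1 lower), 4 of 8 small leucine-rich proteoglycans (2 lower, Prelp and Podn) and 2 of 18 matricellular and adhesion genes (Postn and Fn1). Slc20a2, a phosphate importer, was at 67.3 (chase) and 142 (pulse) CPM in double-positive cells, against 12.1 (chase) and 15.3 (pulse) in Adipoq-only cells and 198 (chase) and 326 (pulse) in Alpl-only cells. Col6a3, a chain of type VI collagen, was at 110.2 (chase) and 163 (pulse) CPM in double-positive cells, against 18.6 (chase) and 33.1 (pulse) in Adipoq-only cells and 335 (chase) and 672 (pulse) in Alpl-only cells. Both lay between the other sets in each library. Lum (lumican) took 103 (chase) and 100.5 (pulse) CPM in double-positive cells, against 7.12 (chase) and 16.5 (pulse) in Adipoq-only cells and 366 (chase) and 206 (pulse) in Alpl-only cells. Mmp2, a gelatinase, was at 91.2 (chase) and 94.1 (pulse) CPM in double-positive cells, against 15.2 (chase) and 19.8 (pulse) in Adipoq-only cells and 175 (chase) and 173 (pulse) in Alpl-only cells. Ccn4, a matricellular target of Wnt signalling, was at 53.6 (chase) and 90.8 (pulse) CPM in double-positive cells, against 9.49 (chase) and 16.4 (pulse) in Adipoq-only cells and 115 (chase) and 156 (pulse) in Alpl-only cells. These genes, too, were highest in Alpl-only cells. Cpe, a carboxypeptidase of hormone processing, reached 83.9 (chase) and 112 (pulse) CPM in double-positive cells, against 8.24 (chase) and 10.3 (pulse) in Adipoq-only cells and 324 (chase) and 252 (pulse) in Alpl-only cells. Ppfibp2, a liprin, was at 55.1 (chase) and 52 (pulse) CPM in double-positive cells, against 9.69 (chase) and 9.8 (pulse) in Adipoq-only cells and 162 (chase) and 122 (pulse) in Alpl-only cells. Postn, periostin, was nearly absent from Adipoq-only cells, at 91 (chase) and 21.9 (pulse) CPM in double-positive cells, against 2.77 (chase) and 0.577 (pulse) in Adipoq-only cells and 318 (chase) and 157 (pulse) in Alpl-only cells.

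Part of this rested on few cells. Osteocalcin (Bglap and Bglap2, near-identical neighbours whose reads may be divided between them) stood at 2223 (chase) and 4393 (pulse) CPM in double-positive cells, against 169.8 (chase) and 115 (pulse) in Adipoq-only cells and 5652 (chase) and 1923 (pulse) in Alpl-only cells for Bglap. Cells with at least 20 UMIs per 10000 of both osteocalcin genes together numbered 27 of 580 double-positive cells in chase (4.66%) and 25 of 653 in pulse (3.83%). They were deep, with medians of 13400 (chase) and 23675 (pulse) UMIs, and held 94.5% (chase) and 97.0% (pulse) of all osteocalcin UMIs of the double-positive set. Such cells made up 0.558% (chase) and 0.335% (pulse) of Adipoq-only cells and 14.7% (chase) and 9.72% (pulse) of Alpl-only cells. Scrublet called 3 chase and 8 pulse cells of the double-positive set doublets, or 0.517% (chase) and 1.23% (pulse). Of Adipoq-only cells it called 2 in chase (0.0858%) and 4 in pulse (0.167%), and of Alpl-only cells 0 in chase and 1 in pulse (0.694%). The share called was thus higher in double-positive than in Adipoq-only cells of each library, and the part of their greater depth was not tested. Whether the osteocalcin-high cells are single cells was not tested.

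Without them Bglap was at 112 (chase) and 141 (pulse) CPM in double-positive cells, against 79.2 (chase) and 101.39 (pulse) CPM in Adipoq-only cells. Col1a1, the main collagen of bone, was at 4429.9 (chase) and 6637 (pulse) CPM in double-positive cells, against 439.7 (chase) and 443 (pulse) in Adipoq-only cells and 6955 (chase) and 4418 (pulse) in Alpl-only cells, and its ratio to Adipoq-only cells of 10.1 (chase) and 15 (pulse) became 2.33 (chase) and 1.59 (pulse) without them. For Col11a1 the ratio of 8.38 (chase) and 7.59 (pulse) became 1.8 (chase) and 1.18 (pulse), and for Col11a2 that of 7.03 (chase) and 9.95 (pulse) became 1.29 (chase) and 1.08 (pulse). Left at 1.5-fold without these cells were 4 of 15 collagens (Col1a1, Col6a3, Col8a1 and Col12a1), 3 of 8 osteoblast markers (Bglap2, Col1a1 and Smpd3) and 5 of 13 mineralization genes (Slc20a2, Smpd3, Spp1, Bglap2 and Omd, with Phex lower). Of 71 named genes past 1.5-fold that could be compared, 60 were still past it without these cells. The ratio of Slc20a2 was 5.67 (chase) and 9.8 (pulse) without them, that of Col6a3 5.47 (chase) and 5.06 (pulse), that of Ccn4 5 (chase) and 4.68 (pulse) and that of Ppfibp2 5.24 (chase) and 5.08 (pulse), and osteogenic CAR markers were higher in 7 of 9. Of the adipogenic CAR markers only Hp was then lower, since Lpl no longer passed in both libraries.

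Among genes of the adipogenic side, several lipid genes were lower. Of 19 lipid genes tested of 22, 6 were lower (Lpl, Cd36, Fabp4, Fabp5, Plin1 and Scd1) and 1 was higher (Mgll, monoglyceride lipase). Without the osteocalcin-high cells 4 of 19 were lower, and Lpl and Fabp5 were not among them. Fabp4 was at 28.6 (chase) and 27.2 (pulse) CPM in double-positive cells, against 185 (chase) and 193 (pulse) in Adipoq-only cells and 48.3 (chase) and 11.8 (pulse) in Alpl-only cells, a ratio to Adipoq-only cells of 0.155 in the chase library (95% counting interval 0.131 to 0.182) and 0.141 in the pulse library (0.121 to 0.163). Lpl took 1048 (chase) and 1411 (pulse) CPM in double-positive cells, against 1637 (chase) and 3074 (pulse) in Adipoq-only cells and 270.1 (chase) and 431 (pulse) in Alpl-only cells. Scd1, which desaturates fatty acids, was at 20.3 (chase) and 23.9 (pulse) CPM in double-positive cells, against 61.7 (chase) and 60.8 (pulse) in Adipoq-only cells and 7.62 (chase) and 5.07 (pulse) in Alpl-only cells. Of 16 adipogenic transcription factors 2 were lower (Klf15 and Zbtb16) and none higher. Pparg, the master regulator of fat cells, was at 52.1 (chase) and 75.9 (pulse) CPM in double-positive cells, against 65.8 (chase) and 102 (pulse) in Adipoq-only cells and 19.5 (chase) and 24.5 (pulse) in Alpl-only cells. Cebpa, its partner, was at 292 (chase) and 217 (pulse) CPM in double-positive cells, against 308 (chase) and 297 (pulse) in Adipoq-only cells and 167 (chase) and 88 (pulse) in Alpl-only cells. Both were within 1.5-fold of Adipoq-only cells in each library. Of 11 adipogenic CAR markers 2 were lower, Lpl and Hp (haptoglobin, at 3283 (chase) and 1808 (pulse) CPM in double-positive cells, against 6109 (chase) and 3155 (pulse) in Adipoq-only cells and 1119 (chase) and 877 (pulse) in Alpl-only cells). Lepr was at 779.7 (chase) and 504 (pulse) CPM in double-positive cells, against 1167 (chase) and 707 (pulse) in Adipoq-only cells and 359.8 (chase) and 319.7 (pulse) in Alpl-only cells. Kitl was at 1589 (chase) and 907 (pulse) CPM in double-positive cells, against 2093 (chase) and 1422 (pulse) in Adipoq-only cells and 1024 (chase) and 624 (pulse) in Alpl-only cells. None of 8 CAR identity transcription factors passed in either direction. Ebf3 and Foxc1, which keep the CAR state, were at 831 (chase) and 548 (pulse) CPM in double-positive cells, against 983 (chase) and 628 (pulse) in Adipoq-only cells and 594 (chase) and 425 (pulse) in Alpl-only cells for Ebf3 and 464 (chase) and 439 (pulse) CPM in double-positive cells, against 535 (chase) and 534 (pulse) in Adipoq-only cells and 381 (chase) and 392 (pulse) in Alpl-only cells for Foxc1. Other genes among the 12 lowest were Apod, a lipid carrier, at 37.8 (chase) and 19.6 (pulse) CPM in double-positive cells, against 139.8 (chase) and 86.5 (pulse) in Adipoq-only cells and 2.54 (chase) and 1.69 (pulse) in Alpl-only cells. Itih5, a hyaluronan-associated protein, was at 156 (chase) and 239 (pulse) CPM in double-positive cells, against 406 (chase) and 541 (pulse) in Adipoq-only cells and 8.47 (chase) and 38.1 (pulse) in Alpl-only cells. Pla1a, Efemp1, Gpr50, Deptor and Atp6v1c2 had ratios from 0.333 to 0.524.

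Part of the immune and signalling genes was lower as well. Of 12 complement and acute phase genes 6 were lower (C1s1, C2, C3, C4b, Cfb and Hp), of 16 inflammatory genes 7 (Ccl2, Ccl7, Il6, Il1rn, Icam1, C3 and Serpina3n), and of 14 niche factors 3 (Il34, Il15 and Il6) with 1 higher (Spp1). Without the osteocalcin-high cells 4 of 12 complement and acute phase genes (C3, C4b, Cfb and Hp), 4 of 15 inflammatory genes (Il6, Il1rn, C3 and Serpina3n) and 2 of 14 niche factors (Il34 and Il6) were lower. C4b was at 527 (chase) and 269 (pulse) CPM in double-positive cells, against 853 (chase) and 478 (pulse) in Adipoq-only cells and 229 (chase) and 118 (pulse) in Alpl-only cells. Il34, a ligand of the macrophage receptor Csf1r, was at 159.7 (chase) and 88.6 (pulse) CPM in double-positive cells, against 272 (chase) and 161 (pulse) in Adipoq-only cells and 30.5 (chase) and 27.1 (pulse) in Alpl-only cells. Osteoclast regulators had 3 of 7 lower (Il34, Ccl2 and Il6) and 1 higher (Cthrc1). Tnfsf11, which encodes RANKL, gave no common direction, at 102 (chase) and 233 (pulse) CPM in double-positive cells, against 69.9 (chase) and 331 (pulse) in Adipoq-only cells and 75.4 (chase) and 97.3 (pulse) in Alpl-only cells. Immediate early genes were lower in 1 of 25 (Btg2), interferon response genes in 1 of 24 (Rsad2), heat shock genes in 2 of 12 (Hspb1 and Dnajb1) and genes of the insulin-like growth factor axis in 2 of 10 (Igfbp3 and Ghr). The immediate early list had median log2 ratios of -0.41 in chase and -0.65 in pulse, against 0.02 and 0.01 over all genes. More of its genes were thus lower than the count past 1.5-fold in both libraries shows. Skeletal stem and progenitor markers had 1 of 13 higher (Pth1r) and 1 lower (Nt5e), and 1 of 18 genes of S phase and mitosis was higher (Ccnd1).

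Markers of other cells were read in the same way. Of 9 neutrophil markers none passed in both libraries, and their sum was 1959 (chase) and 1958 (pulse) CPM in double-positive cells, against 1266 (chase) and 1536 (pulse) CPM in Adipoq-only cells and 356 (chase) and 1182 (pulse) CPM in Alpl-only cells. The median cell was alike in all 3 sets, at 326 (chase) and 344 (pulse) CPM in double-positive, 361 (chase) and 366 (pulse) in Adipoq-only and 357 (chase) and 382 (pulse) in Alpl-only cells, and the 10 highest cells held 86.2% (chase) and 81.6% (pulse) of the Ngp UMIs of the double-positive set. Haemoglobin and other erythroid markers summed to 132 (chase) and 119 (pulse) CPM in double-positive cells, against 298 (chase) and 185 (pulse) CPM in Adipoq-only cells, and 3 of 4 tested were lower. Monocyte or macrophage (6 tested), B cell (2), plasma cell (3), fibroblast (2) and endothelial (1) markers had none past 1.5-fold in both libraries, and no T or NK cell marker had enough UMIs. Mature adipocyte markers summed to 10.7 (chase) and 45.7 (pulse) CPM in double-positive cells, against 48.5 (chase) and 56.8 (pulse) CPM in Adipoq-only cells, with 3 of 4 tested lower (Plin1, Adrb3 and Aqp7) and 5 of 10 in chase and 2 of 10 in pulse at 0. Both chondrocyte markers tested (Col2a1 and Sox9), 1 of 4 pericyte or smooth muscle markers (Abcc9) and 1 of 3 osteocyte markers (Dmp1) were higher. With the osteocalcin-high cells left out, Col2a1, Sox9 and Abcc9 were still higher. Of 2 osteocyte markers then tested none was higher and 1 was lower (Phex). The part of these cells or of free RNA in the differences above was not tested.

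Against Alpl-only cells, double-positive cells held more transcript of adipogenic CAR, niche, inflammatory, complement and immediate early genes and less of osteogenic CAR genes. Of 9083 genes tested, 345 (3.8%) were at least 1.5-fold higher in both libraries and 197 (2.17%) at least 1.5-fold lower, with median log2 ratios over all genes of -0.01 in chase and -0.02 in pulse. This comparison uses the same double-positive cells as the one above. Alpl-only cells were few, and their higher mitochondrial share was given above.

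Of 11 adipogenic CAR markers 7 were higher (Lepr, Il7, Hp, Esm1, Lpl, Cebpa and Pparg). Lpl had a ratio to Alpl-only cells of 3.88 in the chase library (95% counting interval 3.47 to 4.36) and 3.27 in the pulse library (2.99 to 3.58), Pparg one of 2.67 (chase) and 3.09 (pulse), Cebpa one of 1.75 (chase) and 2.46 (pulse) and Lepr one of 2.17 (chase) and 1.58 (pulse). Adipogenic transcription factors were higher in 4 of 14 (Pparg, Cebpa, Cebpd and Klf15), lipid genes in 3 of 15 (Lpl, Fabp5 and Scd1) with 1 lower (Mgll), and niche factors in 5 of 13 (Il7, Il34, Angpt1, Vcam1 and Bmp6) with 1 lower (Spp1). Chrdl1 had a ratio of 11.5 (chase) and 10.1 (pulse), Itih5 one of 18.4 (chase) and 6.27 (pulse) and Trf, the iron carrier transferrin, one of 3.5 (chase) and 3.34 (pulse). Trf was at 1195 (chase) and 961 (pulse) CPM in double-positive cells, against 2169.7 (chase) and 1924 (pulse) in Adipoq-only cells and 341 (chase) and 288 (pulse) in Alpl-only cells. Slc26a7, an anion exchanger, was at 135 (chase) and 94.9 (pulse) CPM in double-positive cells, against 232 (chase) and 205 (pulse) in Adipoq-only cells and 16.1 (chase) and 17.8 (pulse) in Alpl-only cells. Prelp, a proteoglycan, was at 111 (chase) and 61 (pulse) CPM in double-positive cells, against 193 (chase) and 142 (pulse) in Adipoq-only cells and 11 (chase) and 16.9 (pulse) in Alpl-only cells. Igfbp3, which binds insulin-like growth factors, was at 90.5 (chase) and 158 (pulse) CPM in double-positive cells, against 149.99 (chase) and 396 (pulse) in Adipoq-only cells and 18.6 (chase) and 40.6 (pulse) in Alpl-only cells. Serpina3f, Rgcc, Ltbp2, Pdzrn4 and Il34 completed the 12 highest.

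The 12 lowest were genes that Adipoq-only cells had even less of. Fn1, fibronectin, was at 69.8 (chase) and 173 (pulse) CPM in double-positive cells, against 10.8 (chase) and 43.8 (pulse) in Adipoq-only cells and 370.0 (chase) and 495 (pulse) in Alpl-only cells. Omd, osteomodulin of bone matrix, was at 53 (chase) and 212 (pulse) CPM in double-positive cells, against 13.9 (chase) and 29.3 (pulse) in Adipoq-only cells and 175 (chase) and 587 (pulse) in Alpl-only cells. Vldlr, a lipoprotein receptor, was at 40.1 (chase) and 38.2 (pulse) CPM in double-positive cells, against 4.68 (chase) and 6.03 (pulse) in Adipoq-only cells and 125 (chase) and 113 (pulse) in Alpl-only cells. Mgll was at 25.6 (chase) and 11.6 (pulse) CPM in double-positive cells, against 2.31 (chase) and 3.04 (pulse) in Adipoq-only cells and 78.7 (chase) and 69.4 (pulse) in Alpl-only cells. Col6a3 had ratios to Alpl-only cells of 0.329 (chase) and 0.242 (pulse) and Postn of 0.286 (chase) and 0.139 (pulse). Pi15, Spata13, Slc35g1, Angpt4, Cyfip2 and Ptgis had ratios from 0.17 to 0.415. Osteogenic CAR markers were lower in 5 of 9 (Wif1, Spp1, Limch1, Kcnk2 and Mmp13) and higher in 1 (Cxcl14, a chemokine, at 2818 (chase) and 1571 (pulse) CPM in double-positive cells, against 2970.5 (chase) and 1746 (pulse) in Adipoq-only cells and 1664 (chase) and 826 (pulse) in Alpl-only cells). Lower were also 3 of 16 receptors (Pth1r, Vdr and Fgfr3, with Ghr and Lepr higher), 3 of 13 mineralization genes (Slc20a2, Spp1 and Omd), 4 of 17 matrix proteases and inhibitors (2 higher), 3 of 8 small leucine-rich proteoglycans (2 higher), 3 of 18 matricellular and adhesion genes (3 higher), 2 of 17 collagens (2 higher, Col4a1 and Col4a2), 2 of 13 osteogenic transcription factors (2 higher) and 2 of 22 Wnt genes (3 higher). None of 10 osteoblast markers lay past 1.5-fold on the same side in both libraries. Without the osteocalcin-high cells 2 of 6 osteoblast markers (Bglap and Bglap2), 5 of 12 mineralization genes and 4 of 15 collagens were lower.

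The list with the highest share of members past 1.5-fold, among those of at least 10 tested, was that of immediate early genes, which cells switch on within minutes of a stimulus. Of 25 immediate early genes 18 were higher and none lower (median log2 ratio 0.97 in chase and 0.77 in pulse). Fos was at 6731 (chase) and 4321 (pulse) CPM in double-positive cells, against 8643 (chase) and 6769.7 (pulse) in Adipoq-only cells and 3504 (chase) and 2613 (pulse) in Alpl-only cells. Junb was at 2313 (chase) and 1223 (pulse) CPM in double-positive cells, against 3317 (chase) and 2189 (pulse) in Adipoq-only cells and 1032 (chase) and 596 (pulse) in Alpl-only cells. Btg2 was at 662 (chase) and 387 (pulse) CPM in double-positive cells, against 1045 (chase) and 684 (pulse) in Adipoq-only cells and 225 (chase) and 161 (pulse) in Alpl-only cells, in each case between the other sets. Such genes respond to tissue digestion as well as to signals in the animal, and the part of digestion was not tested. Inflammatory genes were higher in 6 of 12, complement and acute phase genes in 6 of 11, genes of the insulin-like growth factor axis in 4 of 10, BMP and TGF-beta genes in 8 of 28, interferon response genes in 3 of 22, skeletal stem and progenitor markers in 3 of 11 (1 lower, Pth1r), osteoclast regulators in 2 of 6 and heat shock genes in 2 of 12. Hspb1, a small heat shock protein, was at 44.9 (chase) and 66.6 (pulse) CPM in double-positive cells, against 78.3 (chase) and 146 (pulse) in Adipoq-only cells and 5.08 (chase) and 7.61 (pulse) in Alpl-only cells. Cfb, a complement protease, was at 81.2 (chase) and 44.7 (pulse) CPM in double-positive cells, against 143 (chase) and 83.9 (pulse) in Adipoq-only cells and 15.2 (chase) and 6.77 (pulse) in Alpl-only cells. CAR identity factors had 1 of 8 higher (Runx1) and 1 lower (Meis1), and S phase and mitosis genes 1 of 12 lower (Ccnd1). Of blood cell markers, 5 of 6 neutrophil genes tested were higher, with the cell medians given above, and 1 of 2 monocyte genes (Lyz2) and 1 of 4 erythroid genes (Hbb-bt). Of pericyte markers Notch3 was higher and Abcc9 lower. None of 2 osteocyte, 2 chondrocyte, 1 B cell and 3 plasma cell markers passed, and no mature adipocyte, fibroblast, endothelial or T or NK cell marker had enough UMIs.

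Genes that told Adipoq-only from Alpl-only cells placed the double-positive cells between them. Over 284 genes at least 2-fold apart between those sets in both libraries, with at least 50 CPM in the higher, a position was taken on the CPM scale that is 0 at the Alpl-only and 1 at the Adipoq-only level. The median position was 0.605 in chase (quartiles 0.516 and 0.694) and 0.469 in pulse (0.380 and 0.589), and 280 (chase) and 272 (pulse) of the genes lay between the sets. For the 176 genes higher in Adipoq-only cells the median was 0.570 (chase) and 0.423 (pulse), and for the 108 higher in Alpl-only cells 0.654 (chase) and 0.583 (pulse). A sum over a mixture of cells like either set would lie between them as well, so this position does not place single cells. Outside the range in pulse lay Bglap, Bglap2, Col1a1, Col1a2, Col11a1, Col11a2 and Nav2, all above the Alpl-only level there. Fabp4 was below the Alpl-only level in chase. Beyond the Adipoq-only level lay Rgs7bp and the neutrophil genes Camp and Ngp in each library, and Plac8 and Gcnt2 in pulse.

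Few genes stood outside both other sets. Of 9077 genes 2 (0.022%) were at least 1.5-fold above both other sets in both libraries and none (0.0%) was at least 1.5-fold below both. Kcnq3, a potassium channel of the M current (chr15:65986387-66286642 in mm10), was at 51.3 (chase) and 41.6 (pulse) CPM in double-positive cells, against 21.6 (chase) and 19.7 (pulse) in Adipoq-only cells and 15.2 (chase) and 5.92 (pulse) in Alpl-only cells. Olfm2, an olfactomedin, was at 22.2 (chase) and 40.3 (pulse) CPM in double-positive cells, against 10.6 (chase) and 18.2 (pulse) in Adipoq-only cells and 5.08 (chase) and 16.9 (pulse) in Alpl-only cells. Both were low, and the sums of both genes in Alpl-only cells rest on few UMIs (for Olfm2, 6 in chase and 20 in pulse).

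Between harvest times, double-positive cells of the chase library held more transcript of interferon, inflammatory and immediate early genes than those of the pulse library and less of collagen genes. Of 10491 genes 722 (6.88%) were at least 1.5-fold higher and 708 (6.75%) at least 1.5-fold lower in chase, with a median log2 ratio of -0.02 over all genes. Time after tamoxifen, age, the mice, the sort and the library cannot be told apart here. For part of the named genes the ratio in 1 or both other sets is given too, in the text or in the plot of chase over pulse ratios. For those genes a move shared with other CAR cells can be seen. The list counts below were made in double-positive cells alone. Whether the lists moved alike in the other sets was not tested, so these counts are not read as traits of the members.

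Interferon response genes were higher in 13 of 23 and lower in none (median log2 ratio 0.61), and inflammatory genes higher in 10 of 14 with 1 lower (median log2 ratio 1.15). Cxcl10, a chemokine for T cells, was at 131 CPM in chase and 8.58 CPM in pulse cells of the double-positive set, a ratio of 15.2 (95% counting interval 11.7 to 20.2), against 3.7 in Adipoq-only and 5.26 in Alpl-only cells. The 10 highest cells held 53.6% (chase) and 75% (pulse) of its UMIs. Cxcl9, of the same family, was at 574 CPM in chase and 77 CPM in pulse cells, with ratios of 7.44 in double-positive, 2.81 in Adipoq-only and 4.59 in Alpl-only cells. Cxcl1, which draws neutrophils, was at 118 CPM in chase and 20.2 CPM in pulse cells. Serpina3n, an acute phase inhibitor, was at 52.8 CPM in chase and 5.86 CPM in pulse cells and complement C3 at 150.1 CPM in chase and 37.2 CPM in pulse cells. Complement and acute phase genes were higher in 6 of 12 (1 lower, Cfd), and immediate early genes in 15 of 25 (1 lower, Atf3).

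Zbtb16 and Dbp were among the 12 highest too. Zbtb16, a transcription factor that glucocorticoids induce, was at 50.2 CPM in chase and 4.57 CPM in pulse cells, with ratios of 11 in double-positive, 6.43 in Adipoq-only and 10.7 in Alpl-only cells. Dbp, an output gene of the circadian clock, was at 95 CPM in chase and 23.4 CPM in pulse cells, and its ratio was 4.05 in double-positive, 4.04 in Adipoq-only and 3.11 in Alpl-only cells. The sources used here do not give the hour of harvest. Mt2, a metallothionein, was at 349.6 CPM in chase and 81.3 CPM in pulse cells. Fmo2, a flavin monooxygenase, was at 225 CPM in chase and 24.2 CPM in pulse cells. Angptl1, an angiopoietin-like protein, was at 55.3 CPM in chase and 10.3 CPM in pulse cells. Postn was at 91 CPM in chase and 21.9 CPM in pulse cells. Rgs5, a pericyte gene, had the highest ratio, but 1 chase cell held 297 of its 337 UMIs.

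**Figure D5:**
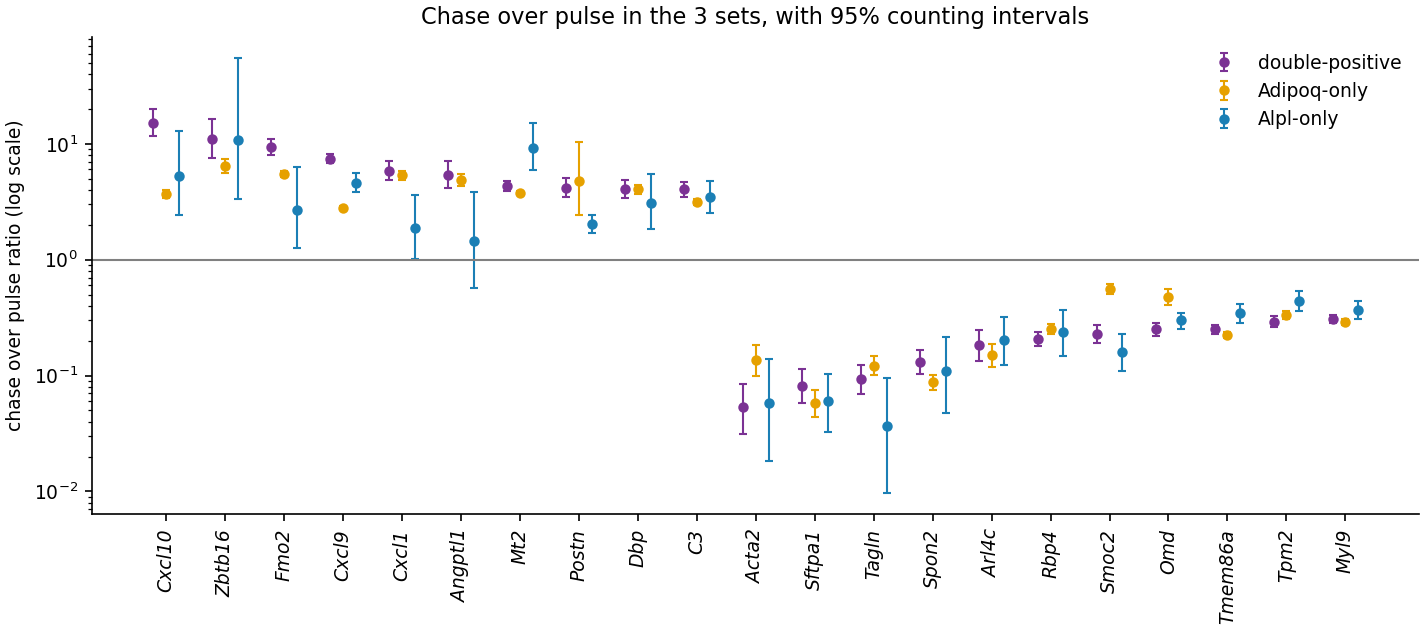
Chase over pulse ratio (vertical axis, log scale, 1 marked) of 21 named genes in double-positive, Adipoq-only and Alpl-only cells, with 95% counting intervals. Double-positive and Adipoq-only points lie on the same side of 1 for every gene shown.

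Acta2, Tagln, Myl9 and Tpm2, genes of the contractile skeleton, were lower in chase. Acta2, smooth muscle actin, was at 3.38 CPM in chase and 63.8 CPM in pulse cells. Tagln (transgelin) was at 10.2 CPM in chase and 109 CPM in pulse cells. Myl9, a myosin light chain, was at 145 CPM in chase and 473 CPM in pulse cells. Tpm2, a tropomyosin, was at 83.5 CPM in chase and 286 CPM in pulse cells. The ratio of Acta2 was 0.0531 in double-positive and 0.137 in Adipoq-only cells, and that of Myl9 0.306 in double-positive and 0.292 in Adipoq-only cells. Pericyte or smooth muscle markers showed no common direction (1 of 4 higher, Rgs5, and 2 lower, Acta2 and Abcc9). Sftpa1, which encodes a surfactant protein, was at 7.33 CPM in chase and 89.8 CPM in pulse cells. Rbp4, the retinol carrier, was at 47 CPM in chase and 226 CPM in pulse cells. Omd was at 53 CPM in chase and 212 CPM in pulse cells. Spon2, Arl4c, Smoc2 and Tmem86a had ratios from 0.131 to 0.251. Col2a1, of cartilage collagen, was at 28.4 CPM in chase and 108 CPM in pulse cells, and the 10 highest pulse cells held 92.4% of its UMIs. Among cells of 5000 to 15000 UMIs the direction turned, with a chase over pulse log2 ratio of 0.81 for Col2a1. Collagens were lower in 7 of 18 and higher in none (median log2 ratio -0.55). With the osteocalcin-high cells left out, 5 of 16 were lower and 1 was higher (Col22a1), with a median log2 ratio of -0.41.

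Markers of the set itself moved in both directions. Adipogenic CAR markers were higher in 5 of 11 (Lepr, Kitl, Hp, Esm1 and Ebf3) and lower in none. Lepr was at 779.7 CPM in chase and 504 CPM in pulse cells, a ratio of 1.55 in double-positive and 1.65 in Adipoq-only cells. Osteogenic CAR markers were higher in 3 of 9 (Wif1, Limch1 and Cxcl14) and lower in 1 (Kcnk2). Wif1 was at 845 CPM in chase and 537 CPM in pulse cells, a ratio of 1.57 (95% counting interval 1.51 to 1.64), against 2.31 in Adipoq-only and 2.17 in Alpl-only cells. Tnfsf11 was at 102 CPM in chase and 233 CPM in pulse cells, with ratios of 0.439 in double-positive, 0.211 in Adipoq-only and 0.775 in Alpl-only cells. Ibsp, bone sialoprotein, was at 4557 CPM in chase and 2566 CPM in pulse cells. Dmp1, a gene of osteocytes, was at 37.4 CPM in chase and 3.43 CPM in pulse cells, with 89.9% of the Dmp1 UMIs of chase in 10 cells.

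The other lists gave small counts. Of adipogenic transcription factors 5 of 16 were higher and 1 lower, of CAR identity factors 1 of 8 higher (Ebf3), of osteogenic transcription factors 1 of 13 higher (Fosl2), of niche factors 5 of 14 higher and 2 lower, of lipid genes 3 of 16 higher and 2 lower, and of mineralization genes 3 of 14 higher and 4 lower. Osteoblast markers were higher in 1 of 10 (Ibsp) and lower in 4 (Bglap, Bglap2, Cgref1 and Col11a2), although among cells of 5000 to 15000 UMIs the log2 ratio was 0.36 for Bglap and 0.60 for Bglap2. Without the osteocalcin-high cells 4 of 9 osteoblast markers were higher in chase (Ibsp, Ifitm5, Smpd3 and Col22a1) and none lower, and the list's median log2 ratio of -0.56 became 0.40. Mineralization genes were then higher in 4 of 14 and lower in 2, and neutrophil genes lower in 4 of 9 rather than 1. Osteoclast regulators were higher in 2 of 6 and lower in 2, Wnt genes higher in 3 of 23 and lower in 3, and BMP and TGF-beta genes higher in 4 of 28 and lower in 3. Matricellular and adhesion genes had 2 of 18 higher and 4 lower, small leucine-rich proteoglycans 3 of 9 higher and 1 lower, proteases and inhibitors 2 of 18 higher and 5 lower, receptors 2 of 16 higher and 1 lower, and skeletal stem and progenitor markers 4 of 12 higher and 1 lower. The insulin-like growth factor axis had 1 of 10 higher and 4 lower, S phase and mitosis 2 of 15 higher and 3 lower, and heat shock 1 of 12 lower. Markers of other cells gave 2 of 3 osteocyte genes higher and 1 lower, 1 of 2 chondrocyte genes higher and 1 lower, 1 of 1 fibroblast gene (S100a4), 1 of 5 monocyte genes (Lyz2) and 2 of 4 plasma cell genes (Jchain and Igha) higher, 2 of 9 neutrophil genes higher and 1 lower, 1 of 2 B cell genes higher and 1 lower, and 1 of 2 mature adipocyte genes lower. None of 1 endothelial and 4 erythroid genes passed, and no T or NK cell marker had enough UMIs. Igha, an antibody gene of plasma cells, was at 59.6 CPM in chase and 6.58 CPM in pulse cells, with a ratio of 9.07 in double-positive, 7.74 in Adipoq-only and 13.8 in Alpl-only cells, and the part of free RNA in such differences was not tested.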

How the data were processed

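Single-cell RNA was measured in 1 chase and 1 pulse library with the 10x 3' kit (version 3.1, per the labels' protocols). Per the file headers, the authors made the count matrices with Cell Ranger 6.0.2, whereas the submitters' processing notes name 2.1.1 and mm10. The counts the authors deposited are whole UMIs per gene and barcode, not normalized. Mice per library are not given, and the members and gene lists were chosen with earlier results of these data known. UMIs were summed per library and set and divided by the set's total (CPM). Genes with at least 50 UMIs over both sides in each library were compared, and past the fold means at least 1.5-fold, in both libraries where sets are compared. Ratio intervals are exact conditional 95% intervals of counting error. With 1 library per harvest time no test was made.

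Named genes are the 12 highest and 12 lowest of each comparison with at least 50 CPM, without gate, mitochondrial, ribosomal, Gm, Rik and blood genes, up to 8 genes beyond both sets, up to 3 per list, and 22 fixed genes. Others were named from lists by their calls, after their values were seen. The 37 lists (22 of function, 15 of cell markers) were fixed by hand. No doublets were removed. Scrublet calls were left out only as an alternative. Clusters used scanpy 1.11.5 and leidenalg 0.10.2 (2000 variable genes, 30 components, 15 neighbours, resolution 0.5). The steps were tested on simulated data. Python 3.11.15, numpy 2.4.6, scipy 1.17.1 and pandas 2.3.3 were used. Some named genes are not reported here.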

Additional observations from a re-analysis of the deposited data

Results flagged for a closer look

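Several named genes had ratios that lay on opposite sides of 1 in the 2 libraries or in 2 of the sets. None of these differences between ratios was tested, since there is 1 library per harvest time.

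Over all cells of each set, osteocalcin was below the Alpl-only level in chase and above it in pulse. Bglap2 in double-positive over Alpl-only cells had a ratio of 0.394 in chase and 2.05 in pulse, and Bglap one of 0.393 in chase and 2.28 in pulse. Without the osteocalcin-high cells both libraries lay below the Alpl-only level, with ratios of 0.350 in chase and 0.269 in pulse for Bglap2 and of 0.323 in chase and 0.367 in pulse for Bglap. The chase over pulse ratio of Bglap2 was 0.457 in double-positive and 2.38 in Alpl-only cells, and that of Bglap 0.506 in double-positive and 2.94 in Alpl-only cells. Col1a1 in double-positive over Alpl-only cells had a ratio of 0.637 in chase and 1.502 in pulse, and of 0.878 in chase and 0.533 in pulse without the osteocalcin-high cells. Col11a2 had a chase over pulse ratio of 0.633 in double-positive and 1.83 in Alpl-only cells. Col2a1 in double-positive over Alpl-only cells had a ratio of 0.568 in chase and 14.1 in pulse (0.585 in chase and 0.907 in pulse without the osteocalcin-high cells), and a chase over pulse ratio of 0.264 in double-positive and 6.56 in Alpl-only cells. In double-positive cells the osteocalcin-high cells numbered 27 in chase and 25 in pulse and had median depths of 13400 (chase) and 23675 (pulse) UMIs.

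Fabp4 in double-positive over Alpl-only cells had a ratio of 0.592 in chase and 2.29 in pulse. Rgs5 in double-positive over Adipoq-only cells had a ratio of 6.05 in chase and 0.372 in pulse, and 1 chase cell held 297 of the 337 Rgs5 UMIs. Tnfrsf11b, which encodes the RANKL decoy receptor osteoprotegerin, had a ratio in double-positive over Alpl-only cells of 0.346 in chase and 2.09 in pulse.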

How the results depend on the processing

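No paired analysis was possible because each harvest time has 1 library. The limits are the single library per time, the depth that sets how many cells reach 2 UMIs, and few Alpl-only cells. Removing Scrublet calls left the share at 14.8% (chase) and 16.4% (pulse), and median-of-ratios scaling left all 74, 81 and 88 named calls (against Adipoq-only, against Alpl-only, chase against pulse). The share was 17.3% in chase among cells of 5000 to 15000 UMIs, 8.49% (chase) and 7.75% (pulse) after thinning to 4000 UMIs, and 8.79% (chase) and 10.6% (pulse) with at least 3 UMIs of each gene. Thinning, which also leaves fewer UMIs per gene, gave 138 genes higher and 75 lower than Alpl-only cells and 442 higher in chase. With at least 3 UMIs of each gene, 327 genes were lower than in Adipoq-only cells. Genes above both sets numbered 5 with at least 3 UMIs, 5 with Cxcl12 of at least 60 per 10000, 1 at a minimum of 200 UMIs per gene and 39 at 1 UMI, where 71 were below both. A minimum of 200 UMIs, by testing fewer genes, gave 151 higher and 133 lower than Adipoq-only cells, 204 and 69 against Alpl-only cells, and 346 and 393 in chase against pulse. A minimum of 1 UMI gave 1293 and 586, 787 and 1609, and 3112 and 2932. Lpl at 2 over 0 Alpl UMIs had a pulse ratio of 0.695 within 5000 to 15000 UMIs.

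Some values changed sign, and the cause was not tested. Within 5000 to 15000 UMIs the chase over pulse log2 ratio became 0.36 for Bglap, 0.60 for Bglap2, 0.81 for Col2a1 and -0.000103 for Lyz2. The neutrophil list's median log2 ratio to Adipoq-only cells in chase became -1.27 and the osteoblast list's to Alpl-only cells in pulse -0.64. Thinning gave 0.90 for Bglap, 0.48 for Bglap2, -0.14 for Timp1 and -1.02 for the osteoblast list. A Cxcl12 gate of 60 gave -0.12 for the neutrophil list. Without osteocalcin-high cells the values were 0.10 for Bglap2, 0.76 for Col2a1, -0.14 for the neutrophil list and -0.995 for the osteoblast list. Of the named calls against Adipoq-only cells, 60 of 71 were kept without osteocalcin-high cells and 56 of 66 after thinning. Against Alpl-only cells these were 79 of 81 and 52 of 66, and for chase against pulse 82 of 86 and 69 of 78. At Leiden resolution 1, added after seeing the data, the highest double-positive share of a cluster was 52.4% in chase and 76.0% in pulse.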
